A study of Mus musculus with 5 samples.

Results

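The 10 genes described here encode 3 hormone receptors of the mammary gland (Esr1, Pgr and Prlr) and 7 transcription factors that mark or build its luminal and alveolar epithelium (Foxa1, Gata3, Elf5, Ehf, Stat5a, Sox9 and Sox10). They were given by name, by a rule that uses no measured value, and are 10 of the 41028 gene names in the count matrices of a series on mouse mammary tumours. All 10 had UMIs (unique molecular identifiers, each standing for 1 captured transcript) in the epithelial cells of every library. Each gene was followed in epithelial cells, defined as cells in which Krt8, Krt18 and Epcam together reached at least 15 UMIs per 10000, and in the remaining cells, called other cells. The gate uses none of the 10 genes.

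The series set 2 single-cell RNA sequencing platforms side by side on dissociated PyMT tumours, which carry the polyomavirus middle T oncogene. The labels give no promoter, strain, age or number of animals, and all libraries share the PyMT genotype, the tissue, the enzymatic digestion and an enrichment of viable cells before loading. Fresh 10x 1 and fresh 10x 2 were fresh tumours on the 10x Genomics 3' v2 droplet system, and stored 10x was a digest kept 24 h, at 4 °C per the protocol, and run on the same system. BD 1 was a fresh tumour on the BD Rhapsody whole transcriptome microwell system. BD 2 was run on BD Rhapsody and is labelled fresh in its title but 24 h in its file names, so it was given no storage state. Nothing in the labels says whether the libraries came from separate tumours, so every p-value below measures the spread between these libraries, which may be technical.

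In the normal gland, luminal epithelium divides into a hormone-sensing lineage and an alveolar lineage that makes milk. Hormone-sensing cells express the oestrogen receptor (Esr1), the progesterone receptor (Pgr) and the prolactin receptor (Prlr). Foxa1 is the forkhead factor that opens chromatin for the oestrogen receptor, and Gata3 is a GATA factor needed throughout the luminal lineages. In alveolar cells, prolactin acts through Prlr, the kinase Jak2 and the transcription factor Stat5a, and the ETS factor Elf5 is required for alveolar differentiation. Ehf is another epithelial ETS factor, and Sox9 and Sox10 are SOX factors linked to progenitor states of the mammary epithelium.

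In the GENCODE annotation of the mouse build GRCm38, Elf5 (chr2:103411688-103450989, plus strand) and Ehf (chr2:103263433-103303278, minus strand) are neighbours, with 108409 bases and 0 whole protein-coding genes between them. The 3 receptors lie apart, Esr1 at chr10:4611593-5005614, Pgr at chr9:8899833-8968611 and Prlr at chr15:10177238-10349180, all on the plus strand. Foxa1 lies at chr12:57540628-57546916 and Gata3 at chr2:9857078-9890034, both on the minus strand. Stat5a (chr11:100859351-100885169) and Sox9 (chr11:112782224-112787760) are on the plus strand, and Sox10 (chr15:79154908-79165240) is on the minus strand. Exons of Stat5a overlap exons of Stat3 on the other strand, and Stat5a is closely related to Stat5b, so how reads were shared among these genes is uncertain. Exons of Gata3 overlap the gene 9230102O04Rik on the same strand, which held 126 to 427 UMIs per library, so part of the Gata3 signal may have been assigned there.

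RefSeq promoters of GRCm38.p6, running from 250 bases before to 50 bases after a transcript start, were matched for 7 of the 10 genes (12 promoters). A pair of them is shown because Prlr and Foxa1 were found together in the receptor-bearing cells described further on. Capitals mark matches on either strand to the forkhead motif TGTTTAC, the STAT palindrome TTCNNNGAA or the SOX motif ACAAAG, and both sequences are written 5′ to 3′ on the strand of the gene. The Prlr promoter is chr15:10223656-10223955 (plus strand), the only 1 of its 3 promoters with a match, and the Foxa1 promoter is chr12:57546062-57546361 (minus strand).
Prlr: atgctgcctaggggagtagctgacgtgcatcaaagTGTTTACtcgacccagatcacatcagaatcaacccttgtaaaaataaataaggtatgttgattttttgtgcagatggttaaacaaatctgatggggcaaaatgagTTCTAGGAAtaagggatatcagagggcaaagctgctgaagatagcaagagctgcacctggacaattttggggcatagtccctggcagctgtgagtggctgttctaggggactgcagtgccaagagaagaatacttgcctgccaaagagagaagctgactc
Foxa1: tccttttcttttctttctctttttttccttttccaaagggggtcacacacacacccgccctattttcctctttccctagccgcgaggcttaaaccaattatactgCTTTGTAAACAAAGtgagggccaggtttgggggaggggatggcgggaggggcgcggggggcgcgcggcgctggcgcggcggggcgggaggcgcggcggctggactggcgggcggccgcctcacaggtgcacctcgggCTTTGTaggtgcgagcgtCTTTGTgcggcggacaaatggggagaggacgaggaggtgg
The first capitals in the Prlr promoter are the forkhead motif, which is present in 3.65% of 32851 mouse promoters, and the second are the STAT palindrome, present in 8.30%. In the Foxa1 promoter the forkhead motif lies inside the first block of capitals and overlaps a SOX match on each side, and the SOX motif is present in 18.7% of promoters. The promoters of Esr1 (2) and Pgr (1) held no forkhead match, which says only that these letters are not in these windows. These matches describe sequence and are not measured binding sites.

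The 5 libraries held 15958 cells, up to 4186 per library, and 29166129 to 59957945 UMIs per library, with medians of 8926 to 12474 UMIs per cell. Of these cells 10959 passed the epithelial gate and 4999 did not. Where 5 values are given in a row, they follow the order fresh 10x 1, fresh 10x 2, stored 10x, BD 1, BD 2, and a fresh 10x pair is given in the order 1 and 2. The epithelial share was 67.3% and 74.3% in the fresh 10x pair, 74.3% in stored 10x, and 67.0% and 62.9% in BD 1 and BD 2. Among the other cells, gates of 5 markers each (such as Col1a1, Col3a1, Dcn, Pdgfra and Lum for fibroblast-like cells) gave 135 to 332 fibroblast-like, 51 to 206 macrophage-like, 24 to 109 T-like and 10 to 171 endothelial-like cells per library. Cells that passed no gate numbered 87 and 95 in the fresh 10x pair, 368 in stored 10x, and 568 and 987 in BD 1 and BD 2. In the last 3 of these libraries their median mitochondrial share was 26.1%, 40.2% and 39.8%, against 7.34%, 15.6% and 19.3% in the epithelial cells. Just below the epithelial gate, at 10 to 15 per 10000, lay 32, 31, 154, 249 and 442 cells, and just above it, at 15 to 20, lay 35, 38, 186, 397 and 537. Library pairs shared 0 to 24 cell barcodes, the most between BD 1 and BD 2. Levels are given as UMIs of a gene per 10000 UMIs summed over the cells named, and because 3' counts are not scaled to transcript length they are not compared between genes.

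Esr1, the oestrogen receptor, was sparse in the tumour epithelium. Its level in epithelial cells was 0.0335 and 0.0334 per 10000 in the fresh 10x pair, 0.0414 in stored 10x, and 0.0696 and 0.0585 in BD 1 and BD 2, from 80, 86, 193, 308 and 211 UMIs. The 2 BD Rhapsody libraries were above the 3 10x libraries, without overlap. Most positive cells held a single molecule: 60 of 70 and 68 of 76 positive epithelial cells in the fresh 10x pair, 156 of 172 in stored 10x, and 165 of 222 and 136 of 168 in BD 1 and BD 2 had 1 UMI.

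The higher Esr1 level was in fibroblast-like cells, which are known to carry oestrogen receptor in the mammary stroma. There it was 0.0501 and 0.103 per 10000 in the fresh 10x pair, 0.203 in stored 10x, and 0.320 and 0.370 in BD 1 and BD 2. Every library had a higher value in its fibroblast-like cells than in its epithelial cells, and fresh 10x 1 had the lowest value, from 13 UMIs. In macrophage-like cells, which served as a background although their own expression was not tested, Esr1 was at 0.0130 to 0.0573 per 10000 from 1 to 8 UMIs per library.

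Pgr, the progesterone receptor and a classical oestrogen receptor target, was found in few epithelial cells. The epithelial level was 0.00545 and 0.0109 per 10000 in the fresh 10x pair, 0.00879 in stored 10x, and 0.0176 and 0.0127 in BD 1 and BD 2, from 13 to 78 UMIs. The 2 BD Rhapsody libraries were again above the others, and fresh 10x 1 was lowest. The 10 cells with the most Pgr held 76.9%, 50%, 82.9%, 83.3% and 65.2% of the epithelial Pgr UMIs in the same library order. Macrophage-like and T-like cells held 0 Pgr UMIs in every library. Fibroblast-like cells held 1, 2, 4, 6 and 20, the last in BD 2, where they reached 0.0547 per 10000.

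Foxa1 was confined to a few epithelial cells among the cells gated here. Its epithelial level was 0.00419 and 0.0151 per 10000 in the fresh 10x pair, 0.0163 in stored 10x, and 0.0391 and 0.0299 in BD 1 and BD 2, from 10, 39, 76, 173 and 108 UMIs. Only 7, 8, 27, 41 and 31 epithelial cells held any, and the 10 cells with the most Foxa1 held 100%, 100%, 72.4%, 77.5% and 76.9% of it. Single cells reached 39 UMIs in BD 1 and 29 in BD 2. Outside the epithelial gate Foxa1 had 0 UMIs in fresh 10x 1, fresh 10x 2 and stored 10x, 4 in BD 1 and 7 in BD 2, all in cells that passed no gate.

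Prlr, the prolactin receptor, was present across the epithelium at nearly the same level in every library. The level was 1.06 and 1.16 per 10000 in the fresh 10x pair, 1.06 in stored 10x, and 1.26 and 1.16 in BD 1 and BD 2, a range that overlaps between platforms. Fibroblast-like cells were at 0.0116 to 0.101 per 10000. Some cells stood far above the rest, with up to 148 Prlr UMIs in a single epithelial cell of BD 1.

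The luminal and alveolar factors Gata3, Elf5, Ehf and Sox9 were found in most epithelial cells of every library. Elf5 was at 3.96 and 4.17 per 10000 in the fresh 10x pair, 3.39 in stored 10x, and 5.66 and 5.38 in BD 1 and BD 2, with stored 10x lowest and the 2 BD Rhapsody libraries highest. Ehf followed the same order of libraries, at 3.10, 3.21, 2.58, 4.23 and 4.13 per 10000. Gata3 was at 2.71, 2.45, 2.60, 3.39 and 3.36, and Sox9 at 4.12, 3.97, 3.0, 5.14 and 4.99. For all 4 genes the 2 BD Rhapsody libraries lay above the 3 10x libraries. In fibroblast-like cells the 4 genes ranged from 0.0154 per 10000 (Ehf, fresh 10x 1) to 0.539 (Sox9, BD 2).

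Stat5a, the transducer of prolactin signals, was at 0.342, 0.350, 0.377, 0.345 and 0.284 per 10000 in epithelial cells, lowest in BD 2. It was also found at a like level in T-like cells, at 0.289, 0.344, 0.395, 0.375 and 0.361, from 3 to 21 UMIs. Gata3, which is also a T helper cell factor, was at 0.771 to 2.77 per 10000 in T-like cells, above its range of 0.0463 to 0.219 in fibroblast-like cells.

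Sox10 had the widest range among libraries of the 7 genes found throughout the epithelium. It was at 0.849 and 0.833 per 10000 in the fresh 10x pair, 1.39 in stored 10x, and 4.92 and 4.00 in BD 1 and BD 2, so the 2 BD Rhapsody libraries were far above the 10x libraries. Sox10 also marks Schwann cells. Of genes that Schwann cells express, Mbp was at 0.180, 0.189, 0.199, 0.240 and 0.225 per 10000 in epithelial cells and Cdh19 at 0.176, 0.154, 0.181, 0.284 and 0.260. Cdh19 and Mbp thus were also highest on BD Rhapsody, and their part in the Sox10 level was not tested.

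**Figure D1:**
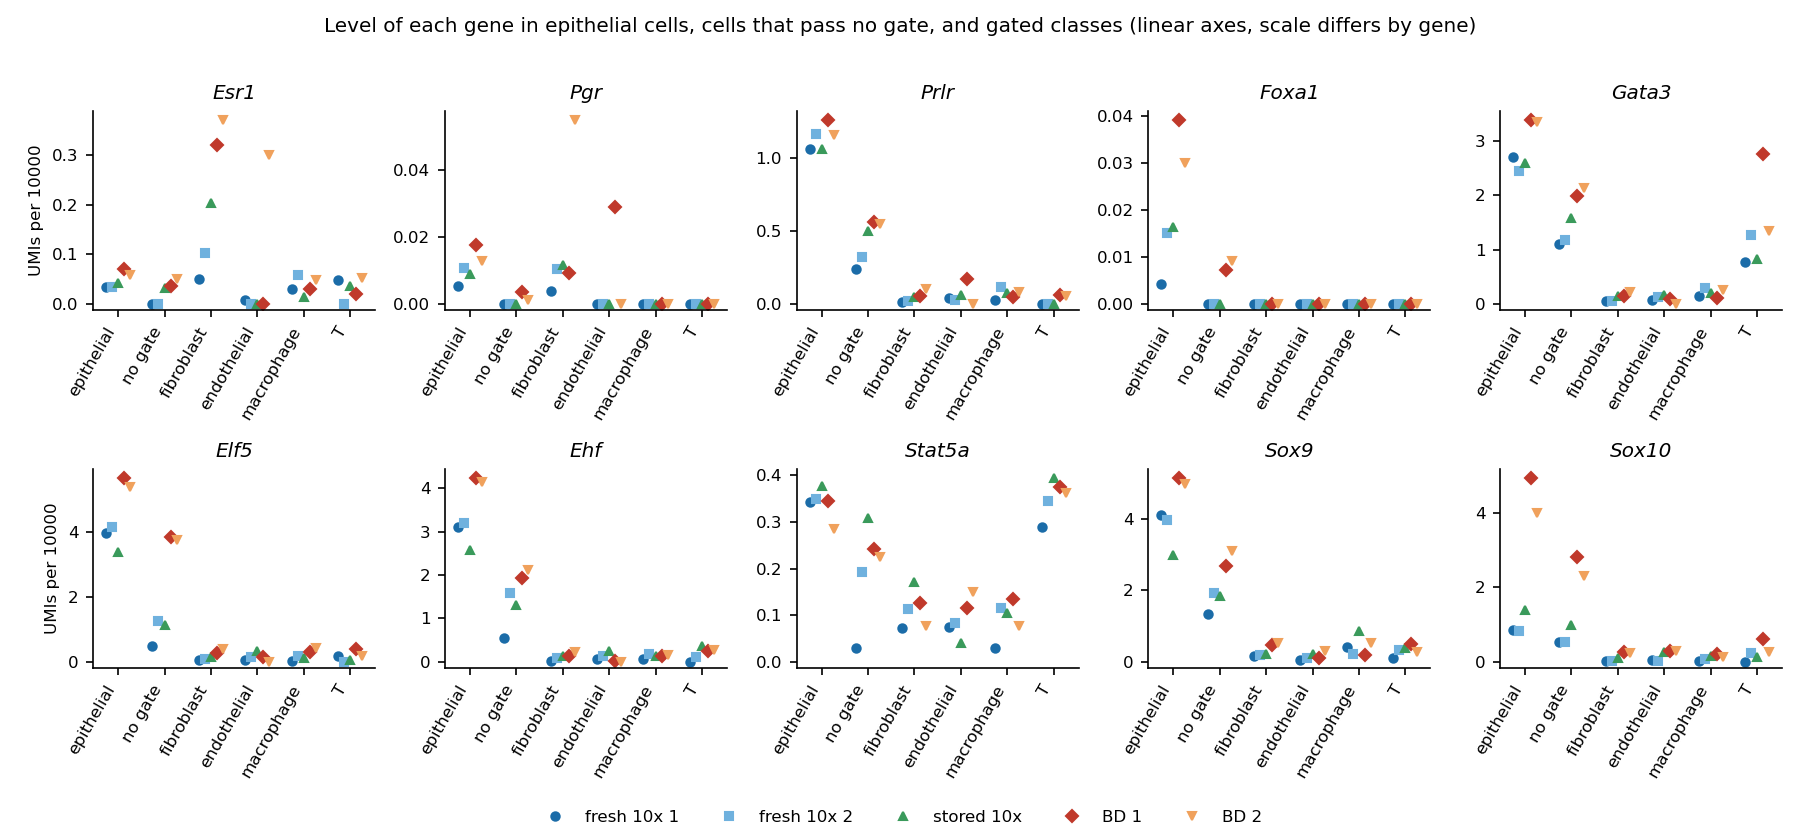
Levels of the 10 genes (UMIs per 10000, linear axes with a scale for each gene) in epithelial cells, cells that pass no gate and gated classes, with 1 point per library. Esr1 was higher in fibroblast-like than in epithelial cells of every library, Foxa1 had 0 UMIs in every gated class other than epithelial cells, and Prlr, Gata3, Elf5, Ehf, Sox9 and Sox10 were highest in epithelial cells of each library among the classes shown.

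To test where the genes were expressed, counts of epithelial and of other cells were summed in each library and compared within libraries over all 14227 genes that passed the filter on low counts. Of the 10 genes, 9 were tested, 7 were higher in epithelial cells and 1 was lower, where 66.3% of all genes were called (35.0% higher and 31.3% lower). So most genes differ in this comparison, and the sizes say more than the calls. Foxa1 did not pass the filter, with 406 epithelial UMIs against 11 in other cells.

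Among the receptors, Prlr was higher in epithelial cells by 3.06 on the log2 scale (SE 0.46, adjusted p = 0.00105), in 5 of 5 libraries. Esr1 was lower by a log2 difference of -0.97 (SE 0.22, adjusted p = 0.00744). Over all other cells of a library Esr1 was at 0.0321, 0.0612, 0.117, 0.154 and 0.137 per 10000, above the epithelial value in 4 of 5 libraries, fresh 10x 1 being the exception. The Esr1 call was lost without stored 10x (-0.78, adjusted p = 0.0703) and with an epithelial gate of 30 per 10000 (-0.37, adjusted p = 0.101). Pgr did not pass the threshold (0.79, SE 0.37, adjusted p = 0.102), but passed it without BD 2 (1.33, adjusted p = 0.0162) and with the gate of 30 (1.83, adjusted p = 0.0149).

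The alveolar and luminal factors were all higher in epithelial cells, each in 5 of 5 libraries. The log2 difference was 3.12 for Elf5 (SE 0.64), 3.10 for Ehf (SE 0.54), 2.61 for Gata3 (SE 0.42), 2.68 for Sox9 (SE 0.44) and 2.50 for Sox10 (SE 0.34). Stat5a had the smallest of these differences, 1.28 (SE 0.21). Their adjusted p ranged from 0.000650 (Sox10) to 0.00423 (Elf5), and the calls held under every alternative run. Among the other cells, those that passed no gate held more of Elf5 than the fibroblast-like cells did: it was at 0.480, 1.26, 1.14, 3.86 and 3.75 per 10000 there, against 0.0617 to 0.391 in fibroblast-like cells.

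When the other cells were limited to those passing exactly 1 class gate, an alternative added after seeing the data, the differences grew. Prlr reached 4.60, Elf5 4.78, Ehf 4.95, Sox10 4.25, Gata3 4.04, Sox9 4.00 and Stat5a 1.66, while Esr1 was at -1.34 (adjusted p = 0.00459) and Pgr at 0.25 (adjusted p = 0.659). In that comparison 40.8% of all genes were higher, 32.9% lower and 73.7% called.

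**Figure D2:**
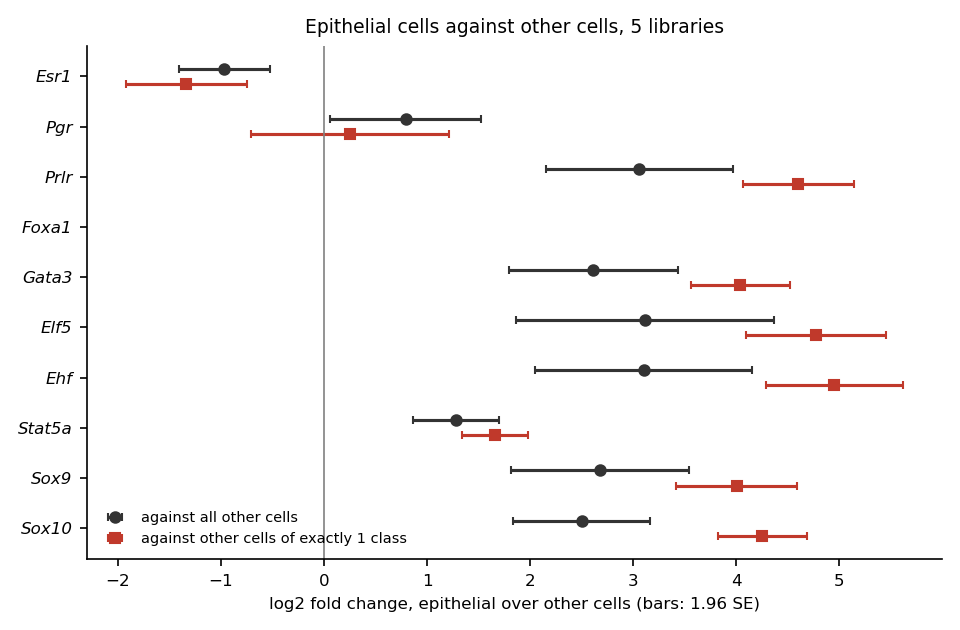
Log2 difference between epithelial and other cells for each gene, with bars of 95% normal intervals from the SE, for all other cells and for other cells passing exactly 1 class gate. Esr1 lies below 0, Pgr spans or nears 0, the 7 remaining genes lie above 0 and shift upward with the narrower set of other cells, and Foxa1 is blank because it was not tested.

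Whether the epithelial difference itself depended on the platform was tested as an interaction. None of the 9 genes was called by edgeR, where 0.0351% of all genes were; 4 of the 9 had an unadjusted p under 0.05. The estimates of the BD Rhapsody difference minus the 10x difference were -2.59 for Elf5 (adjusted p = 0.118), -1.72 for Prlr (0.159), -1.58 for Gata3 and -1.69 for Ehf. DESeq2 called Elf5 alone (adjusted p = 0.00643), edgeR without the filter on low counts called Elf5 (-2.89, adjusted p = 0.0315), and without stored 10x edgeR called 7 of the 9, with Elf5 at -3.50 (adjusted p = 0.00521) and Prlr at -2.86 (adjusted p = 0.00586). With other cells limited to 1 class gate, Elf5 was at -1.18 (adjusted p = 0.202) and Prlr at -1.10 (adjusted p = 0.179). The BD Rhapsody libraries are those with the most cells passing no gate, and the part of those cells in these estimates was measured only by leaving them out.

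The lists of genes around these regulators, from the same comparison, are set here against the 35.0% of all genes called higher and 31.3% called lower. Milk genes were higher in epithelial cells for 11 of 13, with Csn3 (a casein) at 3.51, Wfdc18 at 3.61 and Lalba (alpha-lactalbumin) at 3.58, and 0 were lower, a median of 2.47 against 0.07 over all genes. Of 10 genes of prolactin signalling 4 were higher, Stat5b (0.54), Stat3 (0.63) and the STAT5 targets Cish (0.69) and Socs2 (0.76), and 6 were lower, among them the receptor-bound kinase Jak2 (-1.05), the growth hormone receptor Ghr (-0.70) and the inhibitor Socs1 (-2.93). Of 13 hormone-sensing genes 5 were higher and 5 lower: Cited1 (2.59) and Prom1 (1.76) were higher, while Tbx3 (-3.67), Tnfsf11 (-5.53) and Ly6a (-4.27), which stromal or immune cells also express, were lower. The shares of the prolactin and hormone-sensing lists called higher lie near that of all genes. Other epithelial transcription factors were higher for 12 of 14, such as Elf3 (2.44), Klf5 (2.45) and Foxi1 (3.0), and 1 was lower (Sox11, -2.64). Luminal progenitor genes were higher for 5 of 7, with Kit at 2.10. Of 8 basal genes tested, 0 were higher and 4 lower, and 1 of these, Krt5 (-1.89), turned to 1.72 when the other cells were limited to 1 class gate.

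To compare cells at equal depth, each cell was thinned to 5000 UMIs and shallower cells were left out, which kept 1232, 1221, 2263, 2324 and 2195 epithelial cells. Esr1 was then detected in 1.06% (exact 95% interval 0.563 to 1.80) of fresh 10x 1 cells, 1.97% (1.26 to 2.91) of fresh 10x 2, 2.12% (1.57 to 2.80) of stored 10x, 3.18% (2.51 to 3.98) of BD 1 and 2.41% (1.81 to 3.15) of BD 2. These shares were close to the 0 to 3.23% of macrophage-like cells at the same depth, so this comparison alone cannot tell them apart from background. In fibroblast-like cells the shares were 1.58%, 5.0%, 11.6%, 13.9% and 16.6%, higher than in the epithelial cells of each library. In fresh 10x 1 this was 3 of 190 cells, with an exact 95% interval of 0.327 to 4.54 that covers the epithelial share of 1.06%.

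Pgr was detected in 0.162% (0.0197 to 0.585), 0.737% (0.338 to 1.39), 0.309% (0.124 to 0.636), 0.473% (0.237 to 0.845) and 0.547% (0.283 to 0.953) of epithelial cells, and Foxa1 in 0.162% (0.0197 to 0.585), 0.410% (0.133 to 0.953), 0.574% (0.306 to 0.980), 0.688% (0.394 to 1.12) and 0.774% (0.452 to 1.24). The intervals of the libraries overlap for both genes. Foxa1 was in 0 fibroblast-like cells at this depth, which allows shares of up to 1.58%, 2.50%, 1.12%, 0.946% and 1.42%. At full depth Esr1 was in 5.01% to 8.78%, Pgr in 0.572% to 1.68% and Foxa1 in 0.501% to 1.62% of epithelial cells. The intervals and limits cover counting error only.

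Prlr was detected in 36.7%, 39.2%, 36.8%, 37.7% and 37.2% of epithelial cells at 5000 UMIs, against 0% to 4.27% of fibroblast-like cells. At full depth the shares were 61.5%, 63.8%, 56.9%, 59.6% and 52.7%, where the median epithelial cell had 10871 to 13673 UMIs and the median fibroblast-like cell 11197 to 18667. Elf5 was detected at 5000 UMIs in 76.0%, 81.0%, 70.7%, 82.1% and 83.0%, Ehf in 66.7% to 77.1%, Gata3 in 65.7% to 74.4%, Sox9 in 64.3% to 76.0% and Stat5a in 13.1% to 16.2%. In fibroblast-like cells the same shares were 1.58% to 14.7% for Elf5, 0.526% to 6.16% for Ehf, 2.50% to 7.11% for Gata3, 5.0% to 14.2% for Sox9 and 2.84% to 8.24% for Stat5a. Sox10 went from 36.4% and 32.7% in the fresh 10x libraries through 48.6% in stored 10x to 84.6% in BD 1 and 78.0% in BD 2, against 0.526% to 9.78% in fibroblast-like cells. Sox10 was thus the gene whose detection differed most between platforms.

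The 4 factors Gata3, Elf5, Ehf and Sox9 overlapped in the same cells. All 4 were seen together in 28.2%, 29.2%, 24.1%, 38.2% and 38.5% of epithelial cells at 5000 UMIs, and at least 1 of them in 98.2% to 99.4%. The observed number of cells with both of a pair, divided by the number expected from the product of their shares, had a median over libraries of 0.995 to 1.03 for all pairs among Gata3, Elf5, Ehf, Sox9, Sox10 and Prlr. Elf5 with Sox9 was at 0.995 (0.981 to 1.00 over libraries) and Elf5 with Ehf at 1.02 (1.01 to 1.06). These pairs therefore were seen together about as often as their separate shares give.

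Esr1, Pgr and Foxa1 behaved otherwise. Summed over libraries, 13 epithelial cells at 5000 UMIs held both Pgr and Foxa1, where 0.249 were expected, 12 held Esr1 and Foxa1 (1.32 expected) and 9 held Esr1 and Pgr (0.986 expected). Fresh 10x 1 held 0 cells of each of these 3 pairs, and every other library held 2 to 4 of each. At 2000 UMIs each pair was seen in 1 cell over all libraries, with a median ratio of 0. Prlr and Foxa1 were together in 34 cells (19.8 expected), with a ratio above 1 in every library (1.27 to 2.55). Foxa1 and Elf5 were together in 22 cells (42.0 expected), with a ratio of 0 to 0.609 over libraries. These are descriptions of cells that share a library, and the expected numbers assume that cells differ in nothing but the gene.

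Which other genes went with each regulator was examined by splitting the thinned epithelial cells of each library into cells with and without a UMI of that gene, and testing the sums over the 5 libraries. This was done for Prlr, Gata3, Elf5, Ehf, Stat5a, Sox9 and Sox10. For Esr1, Pgr and Foxa1 a library had fewer than 20 positive cells. A cell without a UMI at this depth is not a cell without the transcript, so the differences are between cells with more and with less of it.

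Cells with Elf5 carried more milk transcripts and fewer basal keratins. All 11 tested milk genes were higher, with a median log2 difference of 1.93 against 0.01 over all genes, where 2.84% of all genes were called higher, 3.21% lower and 6.05% in either direction. Csn2, beta-casein, was at 11.2, 10.2, 14.7, 10.8 and 7.59 per 10000 in cells with Elf5 and at 0.466, 0.767, 1.71, 0.409 and 3.15 in cells without. The ranges do not overlap, and the log2 difference was 3.15 (SE 0.27, adjusted p = 4.22e-08). Glycam1 (3.88), the casein Csn1s2a (3.47), Csn1s1 (2.01), the whey protein gene Wap (1.93) and the milk fat globule gene Btn1a1 (1.5) were also higher, while Csn3 differed by 0.37.

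Of 7 basal genes tested in the Elf5 comparison, 6 were lower. The basal keratin Krt5 was at 0.115, 0.095, 0.050, 0.043 and 0.007 per 10000 in cells with Elf5 and at 0.926, 0.966, 0.215, 0.413 and 0.633 in cells without, a log2 difference of -3.36. Krt17 (-3.56), Krt14 (-2.0), the basal master factor Trp63 (-1.22) and smooth muscle actin Acta2 (-2.02) were lower as well. The matricellular genes Ctgf (-2.01) and Postn (-1.80) fell too, and the summed fibroblast markers were at 0.520 to 2.67 per 10000 in cells with Elf5 and 0.672 to 2.91 without, lower in 4 of 5 libraries; their part in these differences was not tested. Of 6 hormone-sensing genes tested 3 were lower, the oestrogen-induced growth factor Areg (-2.62), Ly6a (-0.93) and Prom1 (-0.55), and 1 was higher (Xbp1, 0.19). Areg was concentrated in few cells. At full depth 414 of its UMIs were in the 50 receptor pair cells described further on and 237 in all other epithelial cells. The part of those few cells in the Areg difference was not tested.

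Among the regulators themselves, cells with Elf5 had more Ehf (0.35, SE 0.05, adjusted p = 2.49e-05) and Gata3 (0.21, adjusted p = 0.00270). Stat5a was higher by 0.39 (adjusted p = 0.0164), a call that was lost without fresh 10x 2 (adjusted p = 0.0510), without stored 10x (0.173), with DESeq2 (0.232) and at 2000 UMIs (0.695). The Gata3 call was also lost at 2000 UMIs (0.13, adjusted p = 0.108). Sox9 did not differ past the threshold, at -0.00. Prlr was at -0.17 (adjusted p = 0.0737).

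Sox9 showed the opposite relation to milk genes. Of 13 milk genes 8 were lower and 1 was higher in cells with Sox9, where 5.07% of all genes were called higher, 7.32% lower and 12.4% in either direction. Csn2 was at 5.57, 6.11, 8.97, 7.29 and 6.51 per 10000 in cells with Sox9 and at 15.6, 13.6, 14.4, 14.2 and 7.84 in cells without, lower in every library, though the gap in BD 2 was small. The log2 difference was -0.93 (SE 0.10, adjusted p = 5.64e-06). Csn1s2a (-0.87), Wap (-0.76) and Glycam1 (-1.15) were lower, and Wfdc18 was higher by 0.15, which turned to -0.06 when cells were thinned to 2000 UMIs. Not all 8 lower calls held when 1 library was left out, with Glycam1 at an adjusted p of up to 0.0574.

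Luminal progenitor genes were higher in cells with Sox9 for 4 of 7, Tspan8 (0.58), the receptor kinase Kit (0.53), the integrin Itgb3 (0.39) and Cd14 (0.20), and 0 were lower. When 1 library was left out, the adjusted p reached 0.117 for Itgb3 and 0.0529 for Cd14, while Tspan8 and Kit stayed under the threshold. Among genes that changed the same way in all 5 libraries, with a mean of at least 20 CPM, those named as higher were the collagen Col27a1 (1.57), the carboxypeptidase Cpm (1.34), Prol1 (1.32), the interferon-induced genes Ifit1 (1.31) and Ifi44 (0.80), and the carbonic anhydrase Car6 (0.77). By the same rule Rrm2, Pclaf, Gmnn, Ccnb1, Spc24 and Csn2 were named as lower. Rrm2, the ribonucleotide reductase subunit made in S phase, was at 0.287, 0.261, 0.279, 0.221 and 0.326 per 10000 with Sox9 and at 0.837, 0.761, 0.536, 0.452 and 0.473 without, a log2 difference of -1.11 with no overlap between the cells with and without Sox9. Pclaf (-1.05), Gmnn (-1.03), Ccnb1 (-0.99) and Spc24 (-0.96), which act in replication or mitosis, fell with it. Of the regulators, Ehf (0.37) and Gata3 (0.25) were higher in cells with Sox9. Stat5a (0.26) and Sox10 (0.15) passed the threshold too, but leaving out any 1 library ended the Stat5a call, and leaving out any of 4 libraries ended the Sox10 call. Elf5 was lower in 5 of 5 libraries but was not called (-0.12, adjusted p = 0.0525 with edgeR). It was called when cells that pass a second gate were left out (-0.13, adjusted p = 0.0373). Fibroblast markers were lower with Sox9 in 4 of 5 libraries (0.540 to 1.88 against 0.569 to 3.92 per 10000), and their part was not tested.

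Cells with Ehf had more Gata3 (0.24), Elf5 (0.23), Sox9 (0.26) and Sox10 (0.25), which is 4 of the 7 other regulators tested, where 4.09% of all genes were called higher, 6.05% lower and 10.1% in either direction. The Sox10 call was lost with DESeq2 (adjusted p = 0.0751) and without BD 1 (0.0512), and the Gata3 call at 2000 UMIs (0.0764). Amtn (1.08), lactoferrin Ltf (0.89), Glycam1 (0.71), Wfdc18 (0.61) and Kit (0.38) rose with Ehf. Of 7 basal genes 6 were lower, Krt17 by a log2 difference of -2.51 and Krt14 of -1.33. The hormone-sensing genes Areg (-2.21) and Cited1 (-2.22) and the stromal genes Postn (-1.73) and Sparc (-1.48) were lower. Most Areg UMIs lay in few cells, as given above, and the part of those cells was not tested. The summed fibroblast markers were lower with Ehf in 4 of 5 libraries (0.531 to 1.95 against 0.590 to 4.61 per 10000), and their part was not tested.

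Cells with Gata3 had more Prlr (0.30, adjusted p = 0.00180), Sox9 (0.27), Ehf (0.22) and Sox10 (0.17), where 3.02% of all genes were called higher, 4.69% lower and 7.7% in either direction. Stat5a was higher by 0.28 (adjusted p = 0.0466), a call that was lost on leaving out any of 4 of the 5 libraries. The Sox10 call was lost without fresh 10x 1 (adjusted p = 0.0642), BD 1 (0.0618) or BD 2 (0.173), with DESeq2 (0.118) and at 2000 UMIs (0.802). The neuropeptide Npy (0.86), Btn1a1 (0.75), the sodium channel subunit Scnn1b (0.63) Plekha6 (0.56) and the transcription factors Foxi1 (0.57) and Tfcp2l1 (0.55) rose. Stat5b rose by 0.34. Krt17 (-2.10), Postn (-1.56) and Ctgf (-1.23) fell. Fibroblast markers were lower with Gata3 in 3 of 5 libraries (0.579 to 2.23 against 0.489 to 3.46 per 10000), and their part was not tested.

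The Stat5a comparison was smaller, with 0.316% of all genes called higher, 0.483% lower and 0.798% in either direction, and milk genes were among them. Of 13 milk genes 6 were higher and 0 lower. Csn1s1 was at 13.5, 21.3, 12.5, 10.6 and 10.0 per 10000 in cells with Stat5a and at 6.96, 11.0, 9.77, 7.15 and 7.61 in cells without, higher in every library although the ranges overlap, with a log2 difference of 0.62. Csn1s2a (0.62), Csn2 (0.51), Btn1a1 (0.46), Xdh (0.37) and Lalba (0.20) were higher, and Stat5b rose by 0.50 (adjusted p = 0.0152). Stat5b is closely related to Stat5a, and whether 3' reads were shared between them was not measured. Stat3, whose exons overlap Stat5a, was at 0.09 and was not called. Timp3 (-1.06), Sparc (-0.99) and Col1a2 (-0.77) fell. Fibroblast markers were lower with Stat5a in 4 of 5 libraries (0.575 to 1.90 against 0.537 to 2.75 per 10000), and their part was not tested.

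Among the splits, Foxa1 passed the filter on low counts in the Prlr comparison alone. It was higher in cells with Prlr by 2.01 (SE 0.40, adjusted p = 0.00335), from 74 UMIs in cells with Prlr and 29 in cells without. Passing the filter thus rested largely on the cells in which Foxa1 was higher, so the call is weak support. Foxa1 was the only 1 of 8 regulators tested to be called, where 0.869% of all genes were higher, 1.38% lower and 2.24% called. DESeq2 gave Foxa1 2.26 with no adjusted p. Without stored 10x, BD 1 or BD 2, Foxa1 no longer passed the filter on low counts, so no value without them was obtained. Cited1, a cofactor of the oestrogen receptor, was higher by 1.88 (adjusted p = 4.03e-05) and the neuropeptide gene Cartpt by 1.10. The basal keratins Krt17 (-3.15), Krt5 (-2.18) and Krt14 (-1.60) were lower, and of 13 milk genes 1 was higher (Lalba, 0.27) and 3 were lower. The immunoglobulin gene Igkc (-1.59) and Apoe (-1.25), a gene that macrophages express, were lower too. In cells with Prlr the summed endothelial markers were lower in 5 of 5 libraries (0.0251 to 0.102 against 0.0392 to 0.253 per 10000). Fibroblast markers were lower in 4 of 5 (0.497 to 1.68 against 0.582 to 3.16), as were macrophage markers (0.111 to 0.435 against 0.156 to 1.04) and those of T and B cells, and the part of these cells' RNA was not tested.

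Sox10 had 1 of 7 regulators higher in its cells, Ehf (0.28, adjusted p = 0.000560), where 0.535% of all genes were called higher, 1.07% lower and 1.61% in either direction. Bglap3 (0.50), the cytokine Tnf (0.45) and Foxi1 (0.39) rose. Areg (-2.87), Dcn (-1.62), Krt17 (-1.53), Col1a2 (-1.15) and Col3a1 (-0.96) fell. Most Areg UMIs lay in few cells, and the part of those cells was not tested. Dcn and Col3a1 are among the fibroblast markers, whose sum was lower in cells with Sox10 in 5 of 5 libraries, at 0.521 to 1.90 against 0.562 to 3.86 per 10000, and the part of fibroblast RNA was not tested.

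**Figure D3:**
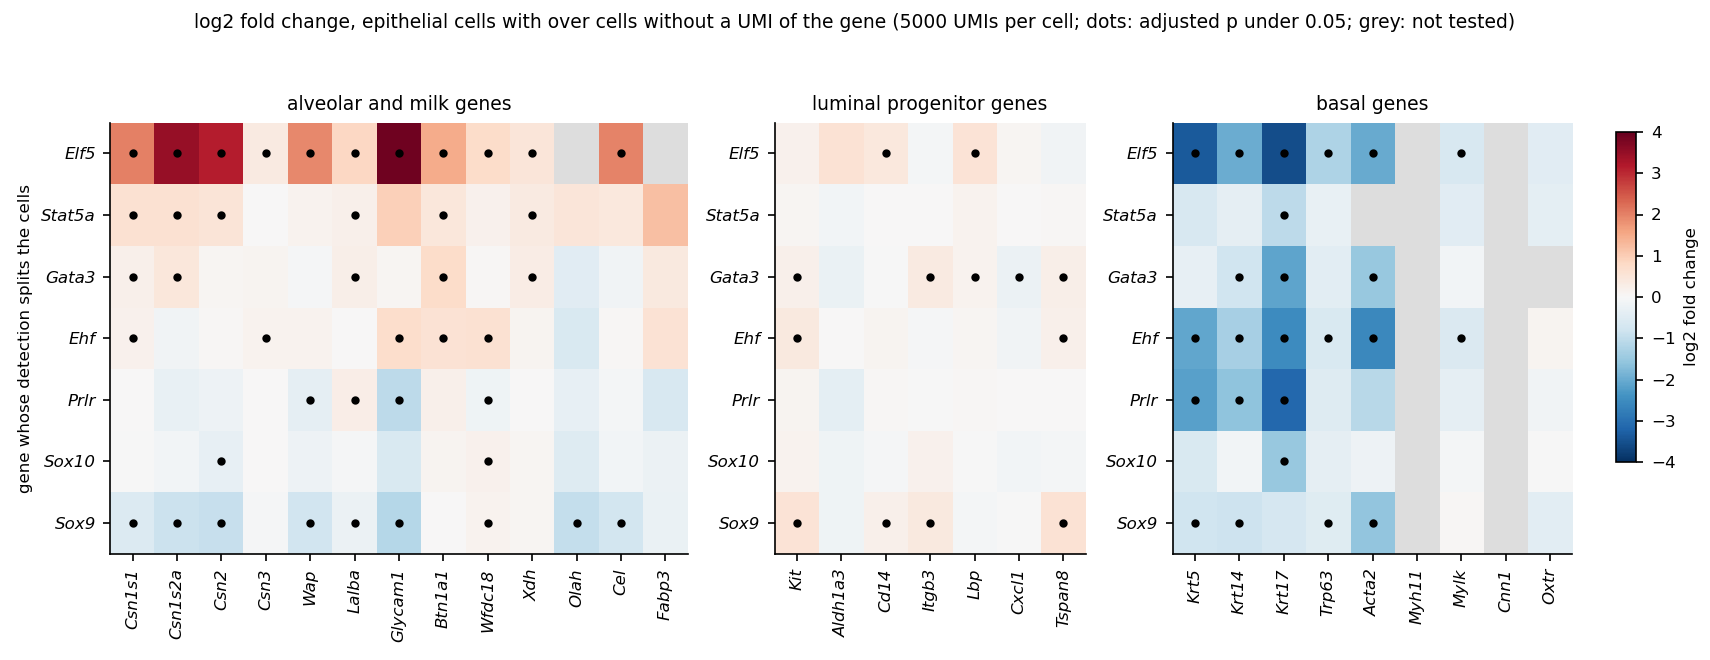
Heat map of the log2 difference of milk, luminal progenitor and basal genes (columns) between epithelial cells with and without a UMI of each of 7 regulators (rows) at 5000 UMIs per cell, with dots where a gene was called and grey where it was not tested. All 11 tested milk genes were higher with Elf5, 6 of 13 were higher with Stat5a and 8 of 13 were lower with Sox9, and no basal gene was called higher with any of the 7.

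Since Esr1, Pgr and Foxa1 were seen together in the same few cells, epithelial cells with UMIs of at least 2 of the 3 at full depth were taken as a class, and called receptor pair cells. This comparison was added after the co-detection had been seen, and the 3 defining genes were left out of it. There were 2 and 6 such cells in the fresh 10x pair, 14 in stored 10x, and 16 and 12 in BD 1 and BD 2, which is 50 of 10959 epithelial cells (0.456%), and 21 of them held all 3 transcripts. The name is shorthand, because Foxa1 is not a receptor. Both receptors, Esr1 and Pgr, were in 1, 5, 7, 9 and 7 of these cells, and the others held Foxa1 with only 1 of the receptors. None of the 50 passed the gate of another class. Among other cells the same rule found 0 in the 10x libraries, 3 in BD 1 and 5 in BD 2. The class is deeper than the rest, with median UMIs per cell of 25373, 29268, 35659, 23804 and 14645 against 12217, 12861, 11076, 13597 and 10858, so values are given per 10000 UMIs.

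Prlr was far higher in receptor pair cells. It was at 19.3 and 5.50 per 10000 in the fresh 10x pair, 5.65 in stored 10x, and 16.4 and 9.23 in BD 1 and BD 2, against 1.02, 1.11, 0.997, 1.13 and 1.11 in the remaining epithelial cells. The ranges are far apart, and the log2 difference was 2.89 (SE 0.23, adjusted p = 2.08e-13). It was 2.70 when only cells with at least 10000 UMIs entered and 2.73 to 3.12 when each library was left out in turn.

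The alveolar factors went the other way. Elf5 was at 0.197, 3.02, 2.42, 2.80 and 0.860 per 10000 in receptor pair cells and at 3.97, 4.18, 3.41, 5.68 and 5.41 in the remaining epithelial cells, lower in 5 of 5 libraries (log2 difference -1.51, SE 0.27, adjusted p = 0.000127). Ehf was at 0.985, 2.88, 1.73, 2.51 and 1.90 against 3.11, 3.21, 2.59, 4.25 and 4.15, again lower in 5 of 5 (-1.0, SE 0.22, adjusted p = 0.00129). Sox10 was lower in 4 of 5 libraries, stored 10x being the exception (1.45 against 1.39), with a log2 difference of -1.38 (SE 0.27, adjusted p = 0.000382). Of the 7 regulators tested 1 was higher and 3 were lower, where 3.48% of all 12210 genes were higher, 5.28% lower and 8.76% called in either direction.

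Gata3 was at 9.46, 2.63, 3.92, 5.75 and 4.98 per 10000 in receptor pair cells against 2.70, 2.45, 2.58, 3.36 and 3.35. It was higher in 5 of 5 libraries but did not pass the threshold (0.47, SE 0.20, adjusted p = 0.161). Sox9 did not pass it either (-0.60, adjusted p = 0.163), but was called without stored 10x (-0.87, adjusted p = 0.0107), without BD 2 (-0.83, adjusted p = 0.0439) and without the filter on low counts (-0.62, adjusted p = 0.0416). Stat5a was at -0.19 with an interval of -0.73 to 0.35.

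Of 11 hormone-sensing genes tested, 7 were higher in receptor pair cells and 1 lower, a median of 3.91 against -0.14 over all genes. In the rest Areg was at or under 0.0329 and Cited1 at or under 0.0263 per 10000, so their differences are taken against very low values. The list was chosen with earlier results known, so this count is no independent evidence. The growth factor Areg was at 30.2, 0.0719, 1.33, 0.950 and 6.15 per 10000 in receptor pair cells and at 0.0239, 0.0329, 0.0087, 0.0071 and 0.0070 in the rest. It was higher in 5 of 5 libraries, least so in fresh 10x 2, where it rested on 2 UMIs, and most in fresh 10x 1, and its log2 difference of 7.50 (SE 0.55) was 6.81 without fresh 10x 1 and 8.38 without fresh 10x 2. Cited1 was at 1.77, 1.01, 0.520, 5.46 and 7.96 against 0.0105 to 0.0263 (log2 difference 7.13), and the progesterone-induced ligand Wnt4 was at 3.74, 0.683, 1.21, 0.871 and 0.588 (6.53). The transcription factor Tbx3 (7.28), Ly6a, also called Sca-1 (4.18), Myb (3.91) and Prom1 (1.28) were higher, and Xbp1 was lower (-1.10). Ly6a, at 24.6, 2.52, 5.78, 15.8 and 7.92 per 10000 against 0.301 to 0.620, was above the rest in every library.

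Milk genes were lower in receptor pair cells for 10 of 13 and higher for 0, with a median of -2.18. When 1 library was left out, the adjusted p reached 0.0602 for Glycam1, 0.0735 for Wfdc18, 0.165 for Btn1a1 and 0.451 for Xdh. The number of milk genes called therefore depended on the libraries used. Csn3 was at 1.97, 42.0, 120, 60.9 and 31.6 per 10000 against 134, 154, 152, 179 and 178 (log2 difference -2.43), lower in 5 of 5 libraries and closest to the rest in stored 10x. Lalba was at -2.28. Csn2 was at -3.48, but in BD 1 it went the other way (30.3 against 12.2 per 10000), and its call was lost without stored 10x (-4.11, adjusted p = 0.344). Luminal progenitor genes were lower for 5 of 7, with Tspan8 at -1.61 and Kit at -1.17, and of the other epithelial transcription factors Foxi1 (-2.02), Cebpb (-1.70) and Id2 (-1.54) were among 5 of 13 that fell. The progenitor genes Itgb3 and Cd14 had an adjusted p of up to 0.123 and 0.208 when 1 library was left out. Of 7 basal genes 4 were lower. Krt17 had 0 UMIs in receptor pair cells against 2924 in the rest, at least 8.81-fold lower when 3 counts over the class are taken as the limit, and Krt14 had 26 UMIs (-2.56).

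In prolactin signalling, Jak2 (1.06) and Ptpn1 (0.69) were higher in receptor pair cells and 0 of 10 genes were lower. Both calls were lost on leaving out 1 library (adjusted p up to 0.219 and 0.306, each without BD 1) and with DESeq2. Among genes that changed the same way in all 5 libraries, with a mean of at least 20 CPM, those named as higher were Fam25c, with 128 UMIs in receptor pair cells and 37 in all the rest, the claudin Cldn6 (61 and 15), the chemokine Cxcl15 (72 and 26), the calcitonin gene Calca (167 and 43) and Plac8 (543 and 260). Areg, given above, was named as higher by the same rule (414 and 237). In the remaining epithelial cells all of these genes were at or under 0.0329 per 10000 in every library. They thus reached the mean of 20 CPM only through the receptor pair cells, so their being named rested on the class in which they were high. The secretory genes Scgb1b27, Dcpp1, Scgb2b27 and Car6 and the growth factor Pgf were named as lower by the same rule, with Car6 at -3.66. Fibroblast markers summed to 0.899 to 2.06 per 10000 in receptor pair cells and to 0.531 to 2.88 in the rest, lower in 3 of 5 libraries. Macrophage markers summed to 0 to 0.264 against 0.124 to 0.750, lower in 5 of 5. Endothelial markers went the other way, higher in 4 of 5 libraries (0 to 0.290 against 0.0279 to 0.187). Mural markers were higher in 3 of 5 (0.180 to 0.976 against 0.310 to 0.647). The part of these cells' RNA was not tested.

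**Figure D4:**
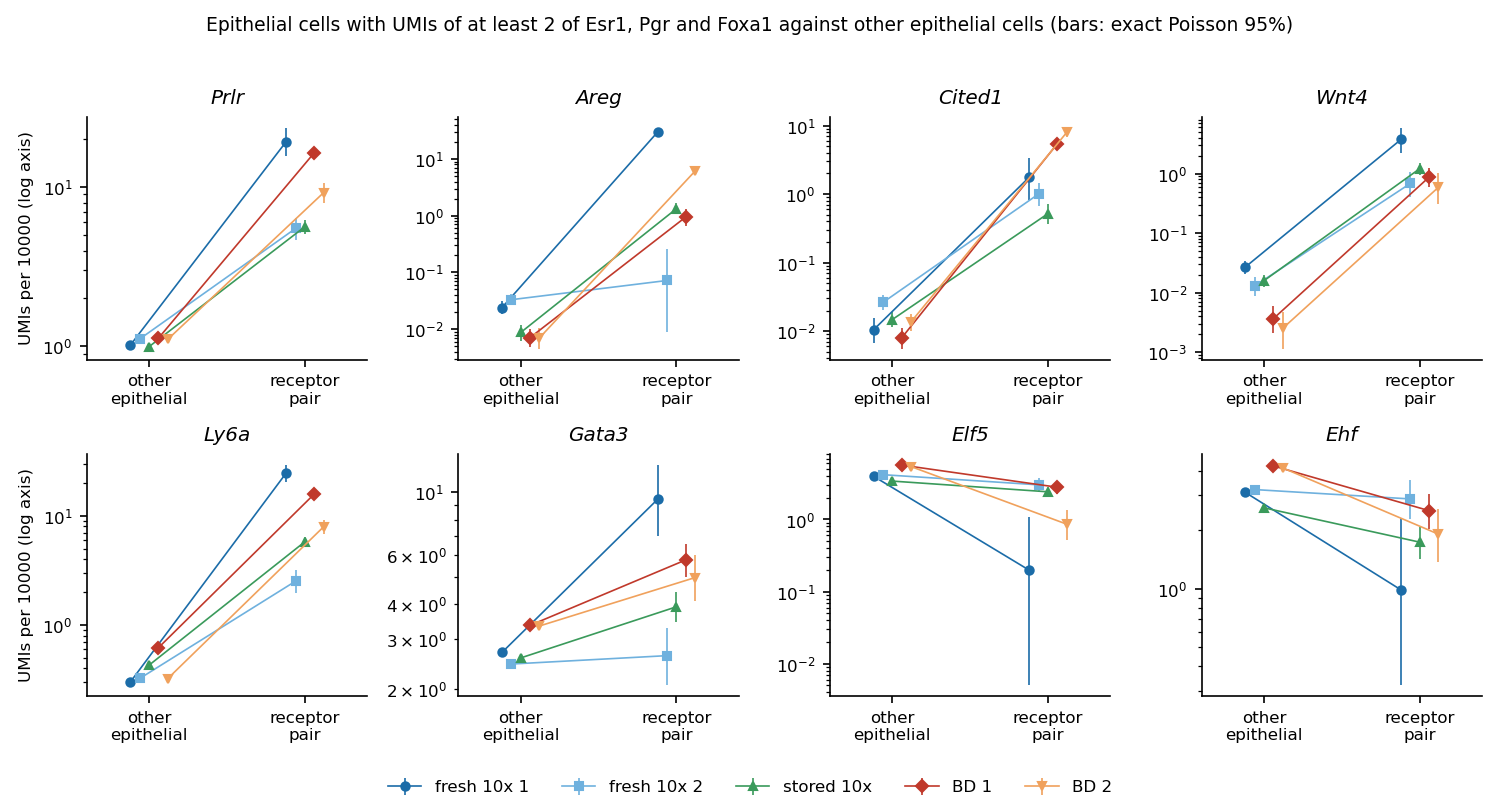
Levels (UMIs per 10000, log axes) of 8 genes in receptor pair cells and in the remaining epithelial cells, with 1 line per library and bars of exact Poisson 95% intervals. Prlr, Areg, Cited1, Wnt4, Ly6a and Gata3 were higher in receptor pair cells of all 5 libraries and Elf5 and Ehf were lower in all 5, although for Areg in fresh 10x 2 and for Elf5 in fresh 10x 1 the interval is wide.

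Between platforms, BD 1 was compared with the 2 fresh 10x libraries on summed epithelial counts. This fit has 1 residual degree of freedom, from the fresh 10x pair, and the storage comparison uses the same fresh 10x libraries as its control. Of the 10 genes 3 were higher in BD 1 and 0 lower, where 20.3% of genes were higher, 20.3% lower and 40.5% called. Sox10 was higher by 2.39 on the log2 scale (SE 0.11, adjusted p = 0.000114), which is 5.23-fold, from levels of 0.849 and 0.833 in fresh 10x to 4.92 in BD 1.

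Esr1 was higher by 0.89 (SE 0.23, adjusted p = 0.0250) and Foxa1 by 1.84 (SE 0.58, adjusted p = 0.0460), but DESeq2 called neither (adjusted p = 0.217 and 0.0991). Leaving out a fresh library removes the residual degree of freedom, so in those fits BD 2 was grouped with BD 1. The Foxa1 estimate was then 1.09 without fresh 10x 1 and 2.88 without fresh 10x 2, so it depended on which fresh library was used. For Prlr the difference was 0.02, with a 95% normal interval of -0.19 to 0.22. Gata3 (0.23), Elf5 (0.31, adjusted p = 0.0799), Ehf (0.26), Sox9 (0.18), Stat5a (-0.17) and Pgr (0.94, adjusted p = 0.186) were not called. Elf5 and Ehf were called when BD 2 joined BD 1, at 0.32 (adjusted p = 0.0160) and 0.28 (adjusted p = 0.0222). Pgr was called with an epithelial gate of 30 (1.91, adjusted p = 0.0288) and without fresh 10x 2 (1.32, adjusted p = 0.0347), and Gata3 without fresh 10x 1 (0.36, adjusted p = 0.0150).

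For storage, stored 10x was compared with fresh 10x. edgeR called 0 of the 10 genes, where 0.608% of all genes were higher, 0.123% lower and 0.731% called; Sox9 and Sox10 had an unadjusted p under 0.05. Sox10 was at 1.39 per 10000 in stored 10x against 0.849 and 0.833, a log2 difference of 0.74 (SE 0.11, adjusted p = 0.0547). DESeq2 called Sox10 (adjusted p = 0.0101), and edgeR called it without the filter on low counts (0.00546), with an epithelial gate of 10 (0.0194) and with BD 2 grouped with BD 1 (0.0416). With that grouping kept, it was called without fresh 10x 1 (0.0278) or fresh 10x 2 (0.0441). With BD 2 taken as stored the estimate was 0.34 (adjusted p = 0.887). Sox9 was at -0.41 (adjusted p = 0.200), Ehf at -0.27 and Elf5 at -0.24, all lowest in stored 10x among the 5 libraries. Foxa1 was at 0.76 (adjusted p = 0.599) and was called without fresh 10x 2 (1.91, adjusted p = 0.0497), again with BD 2 grouped with BD 1.

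**Figure D5:**
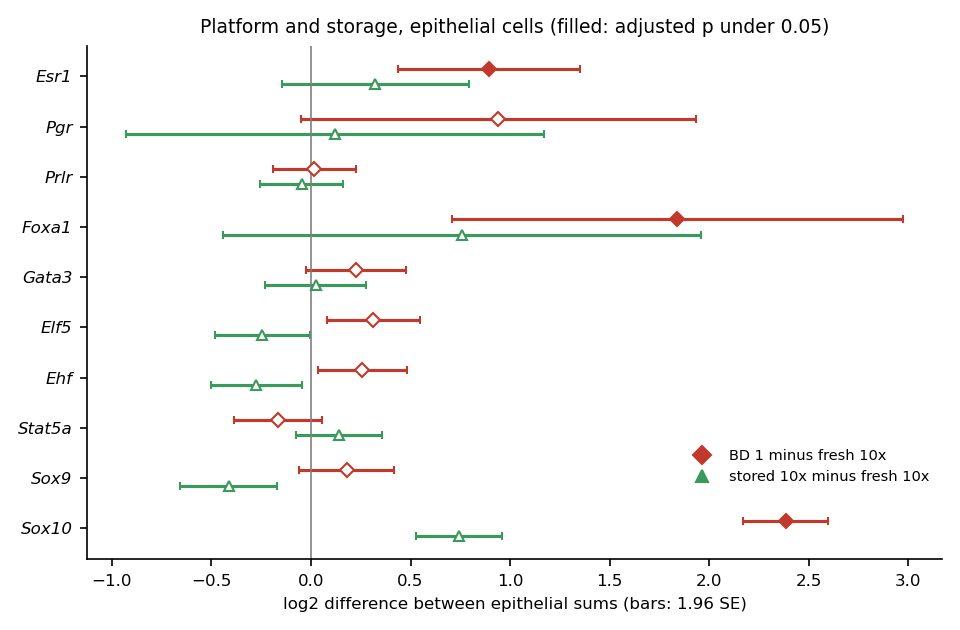
Log2 differences in epithelial cells for BD 1 minus fresh 10x and stored 10x minus fresh 10x, for each of the 10 genes, with bars of 95% normal intervals from the SE. Sox10 stands apart in the platform comparison at 2.39, and in the storage comparison none of the 10 genes was called.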

How the data were processed

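The authors deposited raw UMI counts per gene and cell, whole numbers per the file headers, and 1 main matrix per sample was used for each of the 5 libraries. The submitters' processing notes name the build mm10 and Cell Ranger 3.0.1, without saying for which platform. Spellings of a symbol were merged to 41028 names. The authors had selected the cells already; totals per library were 29166129 to 59957945 UMIs, which sets the counting intervals given.

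The 10 genes, the gene lists and the tests were chosen with earlier results of these data known, so the lists are no independent evidence. The named genes are the 10 regulators, the list members, and in each split up to 6 genes per direction with the largest fold at an adjusted p of 0.05, the same direction in 5 libraries and a mean of at least 20 CPM, without predicted, mitochondrial and ribosomal protein names. Gates used markers summed to at least 15 UMIs per 10000. No doublet caller was run; leaving out epithelial cells that also passed another gate (0.494% to 3.06% of them) is an alternative.

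Counts were summed per library and cell set and tested with edgeR 4.0.16 in R 4.3.3 (quasi-likelihood test, TMM, filterByExpr, Benjamini-Hochberg over all genes tested, threshold 0.05). Compartments, splits and receptor pair cells were compared with the library as a block. Platform and storage were fitted over 5 libraries in 4 groups. Cells were thinned to 5000 UMIs with Python 3.11.15 and numpy 2.4.6, and exact intervals came from scipy 1.17.1. DESeq2 1.42.0 is an alternative, as are other gates, a limit of 20% mitochondrial UMIs, no filter, thinning to 2000 UMIs, other groupings of BD 2 and leaving out each library. On simulated counts the 2-fold and 4-fold changes recovered were 92.9% and 100% for compartments (14156 genes), 57.1% and 89.8% for the platform (14971 genes), 45.5% and 92.9% for storage (14987 genes), 100% and 100% for the Elf5 split (10972 genes) and 24.5% and 76.8% for receptor pair cells (12049 genes). Single values of 3 genes of the fixed lists are not reported here.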

Additional observations from a re-analysis of the deposited data

How the results depend on the processing

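The epithelial difference was kept in direction and call by Prlr, Gata3, Elf5, Ehf, Stat5a, Sox9 and Sox10 under every alternative run, with leave-one-library-out ranges on the log2 scale of 2.69 to 3.46 for Prlr, 2.60 to 3.63 for Elf5 and 1.08 to 1.44 for Stat5a. Over the 10 genes, 104 of 108 alternative values of that comparison kept their side of the threshold, the exceptions being Esr1 and Pgr as given above, and the number of genes called was 8058 to 9343 when each library was left out, against 9435. The platform interaction depended most on the processing, with 5 genes called in all, 0 with a gate of 30 per 10000, 3 with a gate of 10, 9 without cells that pass another gate, 579 with DESeq2, 731 without a filter, and 0 to 2705 when each library was left out, the most without stored 10x. The platform comparison called 6270 genes, 3795 with DESeq2 and 8173 to 8276 without either fresh 10x library. Storage called 113 genes, 1 with a gate of 30, 351 with a gate of 10, 49 after leaving out cells under 500 UMIs or above 20% mitochondrial UMIs, 464 without a filter, 279 with BD 2 grouped with BD 1, 0 with BD 2 taken as stored, and 724 to 746 without either fresh 10x library. In these last leave-outs BD 2 was grouped with BD 1, so that a spread existed, and the lone fresh library was assumed to vary like the others. The splits together called 4511 genes, 1601 with DESeq2, 1417 at 2000 UMIs per cell and 2965 to 3986 when each library was left out. Receptor pair cells called 725 to 1085 genes when each library was left out, against 1070. The cause of these moves was not tested, except that fewer UMIs per cell enter at 2000. Of single genes, 3 reversed: in the compartment comparison Stat6 (0.16 with a gate of 30, against -0.28) and Krt5 (1.72 with other cells limited to 1 class gate, against -1.89), and Wfdc18 in the Sox9 split (-0.058 at 2000 UMIs, against 0.15). No paired analysis was possible because the fresh 10x, stored 10x and BD groups share fewer than 2 replicate numbers. Limits: only fresh 10x has a replicate, the receptor pair class rests on 2 to 16 cells per library, and a gene seen in under 20 cells of a library at 5000 UMIs could not be split.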
